A study of Mus musculus with 17 samples.

Results

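The comparison described here is between 2 kinds of tumour found within the 8 libraries labelled Rb1/Trp53/Crebbp, out of 17 libraries in all. The members were chosen by 2 measured values: a library was called Pomc-high where its count of Pomc exceeded its count of Calca, and Calca-high where the reverse held. This put tumours T5, T6, T7 and T8 in the Pomc-high set and T1, T2, T3 and T4 in the Calca-high set. The RNA came from mouse tumours whose labels place them in the pituitary and call them neuroendocrine. These 8 carried engineered alleles of all 3 genes Rb1, Trp53 and Crebbp, and the 9 others those of Rb1 and Trp53 only. All 17 tumours therefore share the Rb1 and Trp53 alleles, which code for 2 tumour suppressors, and the 8 add an allele of Crebbp, the gene of the acetyltransferase CBP. The sources used here give no strain, age, sex, Cre driver or number of mice. Tumours may therefore share an animal, and p-values measure the spread between these samples only.

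The split used the counts of the same libraries, and so every difference between the sets is a description with no p-value. Pomc and Calca chose the sets and support nothing here. The libraries closest to its threshold were T8, with 439 Pomc reads for each Calca read, and T1, with 1038 Calca reads for each Pomc read. At the other end, T5 had 52018 Pomc reads for each Calca read and T4 had 16749 Calca reads for each Pomc read. No library lay near an even ratio. Values are CPM, read counts scaled to TMM-adjusted library size, and compare 1 gene across libraries rather than genes with each other. They are given in the order T5, T6, T7, T8 for the Pomc-high set and T1, T2, T3, T4 for the Calca-high set. Log2 differences are Pomc-high minus Calca-high with their SE. A gene was counted as apart where the sets differed at least 4-fold and their CPM ranges did not overlap.

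Pomc encodes a prohormone that is cut into corticotropin in the corticotrophs of the anterior lobe and into melanotropins in the melanotrophs of the intermediate lobe. Tbx19 drives its transcription in both cells, and Pax7 separates the melanotroph from the corticotroph fate. Calca gives rise to calcitonin, the hormone of the thyroid C cells, and by alternative splicing to the neuropeptide CGRP. Nkx2-1 and the Foxa factors act in endoderm of the foregut, from which thyroid and lung arise, and Nkx2-1 is also used in the ventral forebrain. CBP is recruited to promoters by CREB and many other factors, and the phosphorylated CREB that binds it occupies cAMP response elements.

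The stretches of 250 bases before the start sites of the 2 genes that define the sets are shown because CREB-bound elements are where CBP is known to act. They are RefSeq sequences of build GRCm38.p6, written along the strand of the gene, and the reads themselves were mapped to mm9. The Pomc stretch is chr12:3954695-3954944 on the plus strand and the Calca stretch is chr7:114636358-114636607 on the minus strand. Capitals mark matches to any of 8 motifs searched on both strands.
Pomc: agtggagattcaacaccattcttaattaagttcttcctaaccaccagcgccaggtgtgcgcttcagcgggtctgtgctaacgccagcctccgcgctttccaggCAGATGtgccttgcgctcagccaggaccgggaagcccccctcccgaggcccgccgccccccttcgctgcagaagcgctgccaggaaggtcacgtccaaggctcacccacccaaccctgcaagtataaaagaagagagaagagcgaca
Calca: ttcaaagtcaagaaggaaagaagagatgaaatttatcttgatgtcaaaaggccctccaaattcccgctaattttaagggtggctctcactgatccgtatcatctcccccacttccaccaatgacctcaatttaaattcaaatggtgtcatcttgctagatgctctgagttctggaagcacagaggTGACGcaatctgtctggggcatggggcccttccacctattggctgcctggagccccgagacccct
The motifs were TGACGTCA (the cAMP response element) and its arm TGACG, which overlap each other, GGTGTGA (T-box), TAATCC (Pitx), CTCAAG (Nkx2-1), TGTTTAC (Fox), AAAGGTCA (Nur77) and CAGATG (the E-box of NeuroD1). Pomc held the CAGATG letters from position -147 and Calca held TGACG from position -65, counted from the start site. The 250 bases of Tbx19 and of Nkx2-1 held none of the 8. A promoter was found in the table for 10205 of the 14413 genes tested, for 411 of 628 counted as higher in the Pomc-high set and for 557 of 825 counted as higher in the Calca-high set. TGACG was present in 26.7% of the promoters of tested genes, in 17.8% of those of genes higher in Pomc-high and in 15.98% of those higher in Calca-high tumours. It was present in 17.9% of all 27025 promoters of the table. CAGATG stood in 10.03%, 13.4% and 12.4% of the same 3 groups of tested genes and in 14.5% of all. GGTGTGA, the T-box letters, stood in 2.73%, 3.89% and 1.97%, and in 3.31% of all. The full element TGACGTCA stood in 2.83%, 1.22% and 2.69%, and in 1.62% of all. A match describes letters, not binding.

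The 8 libraries held 8328297 to 15490074 reads on genes, so 0 reads in a library allow up to 0.178 to 0.330 CPM (3 counts, counting error only). Reads outside annotated features made up 18.5% to 21.7% in the Calca-high and 13.2% to 15.8% in the Pomc-high libraries, and the 10 most abundant genes took 7.62% to 11.99% and 15.6% to 27.9%. In a principal component analysis of 500 genes the first axis carried 92.1% of the variance and parted the sets, with scores of -61.5 to -58.4 against 47.7 to 65.4. On the second axis (3.804%) T8 scored -30.8 and T5 to T7 scored 5.59 to 11.02. In T8, 235 genes were at least 4-fold above all 3 other Pomc-high tumours, against 0 to 12 such genes for the other 7 libraries within their own sets. Among 14 markers of astroglia, oligodendrocytes and posterior lobe pituicytes the summed level was 1751 CPM in T8 and 149 to 298 CPM in T5 to T7. In the Calca-high tumours T1 to T4 the same sum was 332 to 462 CPM. Gfap, an astrocyte filament, stood at 6.12, 0.814, 0.881 and 155 CPM in the Pomc-high tumours. Set differences that moved over 1.5-fold without T8 are given both ways below. Y-linked genes had reads in T1 (Ddx3y 60.3 CPM, Xist 9.51 CPM) and hardly any in the other 7, where Xist was 1456 to 3155 CPM.

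Markers of several other tissues differed between the sets and others overlapped. Of 11 thyroid follicular genes, 8 passed the filter on low counts and 6 were counted as higher in Calca-high tumours. Tg, the thyroid hormone precursor, stood at 902, 1082, 1194 and 1255 CPM there and at 2.74, 2.07, 1.54 and 12.4 CPM in the Pomc-high tumours. The sum over the 11 genes was 953 to 1330 CPM against 13.1 to 29.9 CPM, and the iodide-recycling gene Iyd was also present (7.42 to 14.8 CPM). Of 12 lung epithelial genes, 5 of 6 tested were higher in Calca-high, with the surfactant gene Sftpb at 22.7 to 27.1 CPM against 0 to 0.220 CPM, and the 12 summed to 178 to 231 against 89.9 to 98.2 CPM. Of 12 anterior lobe genes, the growth hormone gene Gh stood at 8.97, 399, 752 and 9.04 CPM and the prolactin gene Prl at 211, 365.5, 1578 and 38.3 CPM in the Pomc-high set. In the Calca-high set Gh had 0 reads and Prl had 2, and the 12 summed to 0.192 to 0.611 CPM, and the Pomc-high libraries differed widely among themselves, T6 and T7 being highest for Gh. The 9 fat genes summed to 204 to 403 CPM in Pomc-high and 19.2 to 38.7 CPM in Calca-high tumours, with Lpl, a lipase that is not confined to fat cells, at 272, 398, 325 and 190.1 CPM and 8.03, 15.8, 8.25 and 6.46 CPM. The fat-cell genes Adipoq and Plin1 had 3 and 0 reads in the Pomc-high set and 11 and 5 in the Calca-high set. Fibroblast genes summed to 384 to 944 CPM in Calca-high and 99.0 to 426 CPM in Pomc-high tumours, with the highest of the latter in T8. Endothelial genes summed to 60.2 to 81.6 and 28.3 to 77.7 CPM, macrophage genes to 87.2 to 270.5 and 29.0 to 194 CPM, and 11 lymphocyte genes to 3.496 to 8.98 and 1.29 to 1.90 CPM. The 10 skeletal muscle genes ranged from 5.76 to 610.4 CPM among the Calca-high and from 6.22 to 11.6 CPM among the Pomc-high tumours. In bulk tumours, fewer cells of a type and less RNA per cell cannot be told apart. Whether these other cells contribute to the set differences below was not tested.

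**Figure D1:**
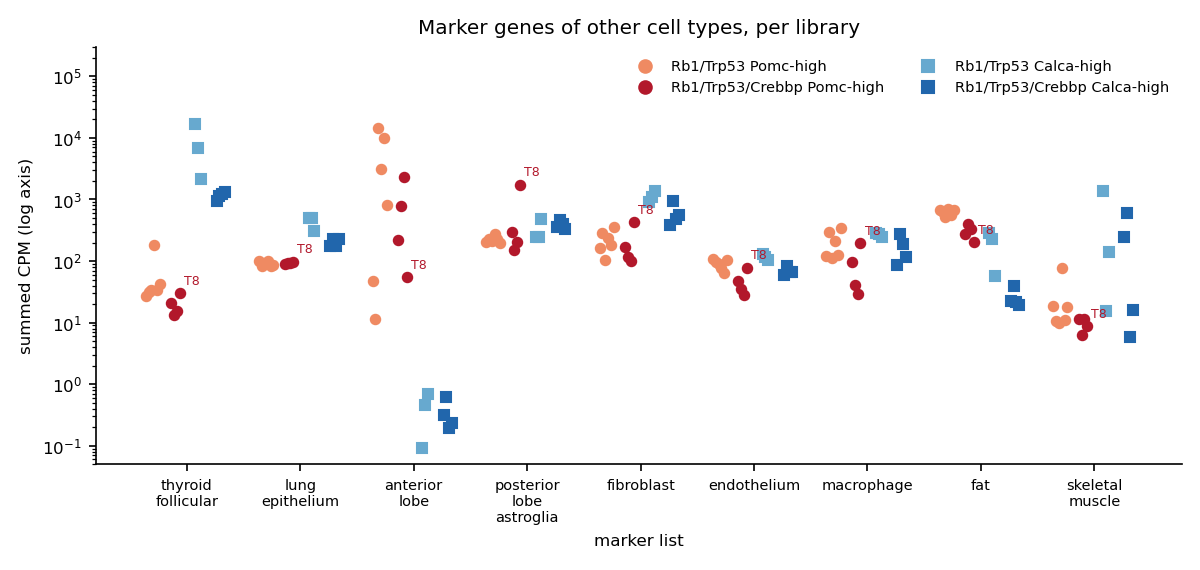
Summed CPM (log axis) of the marker genes of 9 other cell types in all 17 libraries, 1 point per library, by genotype and set. T8 reached 1751 CPM for the astroglial list, thyroid follicular genes reached 953 to 1330 CPM in the 4 Rb1/Trp53/Crebbp Calca-high tumours, and anterior lobe genes were under 1 CPM in every Calca-high tumour.

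Across the transcriptome the sets were far apart. Of 14413 genes tested, 1453 (10.1%) were counted as apart, 628 (4.36%) higher in the Pomc-high and 825 (5.72%) higher in the Calca-high tumours. The CPM ranges did not overlap for 7060 genes (49.0%) when no minimum fold was set. Without T8 the counts were 607 of 14632 (4.15%) and 1160 (7.93%), together 12.1%, and 8234 genes (56.3%) did not overlap at any fold. The rule used this contrast, so the members counted in each list below are a description. Their share is to be read beside the 10.1% of all genes. In any list, genes almost without reads in a set passed the filter on low counts through the other set alone. The filter thus fixed the direction of such genes.

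Several pituitary transcription factors were at or near 0 in the Calca-high tumours, whose label is also pituitary. Of 25 factors of pituitary development, 15 passed the filter on low counts, 10 of them higher in Pomc-high and 1, Isl1, higher in Calca-high. Six6, Six3, Pax7 and Tbx19, almost without reads in Calca-high tumours, passed the filter through the Pomc-high set alone. Tbx19 stood at 355, 306, 418 and 388 CPM in T5 to T8 and at 0.317, 0.0611, 0.128 and 0 CPM in T1 to T4 (11.66 ± 0.32, and 12.34 without T1). All 4 Pomc-high libraries lay within a narrow range, T8 included. Pax7 stood at 179, 202, 180.01 and 124.5 CPM against 0, 0.183, 0 and 0 CPM, a ratio of 3321.5-fold (95% exact counting interval 1136 to 16109.7). Pax7 was thus counted beside Tbx19 in each of the 4. Six6 and Six3, homeobox factors of the early pituitary and eye, stood at 136, 98.3, 115 and 84.6 CPM and 269.7, 298, 279 and 140.5 CPM. Six6 had 0 reads in the Calca-high set (at least 2059-fold higher in Pomc-high, against a floor of 3 counts over the group) and Six3 had 3, a ratio of 4749-fold (95% exact counting interval 1624.5 to 23031). The antisense transcript Six3os1 was counted at 62.5, 68.7, 61.1 and 35.3 CPM and 0, but without strand it cannot be told from Six3.

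Other factors of the same list were lower in Calca-high tumours without being absent. Lhx3, a LIM homeobox factor of all pituitary lineages, stood at 231, 147, 219 and 143 CPM against 7.61, 4.09, 7.23 and 3.85 CPM (5.05 ± 0.29). Pitx1, which acts with Tbx19 on Pomc, stood at 236, 159, 213 and 145 CPM against 33.3, 26.1, 44.7 and 4.03 CPM (2.81 ± 0.61). T1 to T3 thus kept Pitx1 at 26.1 CPM or above, and T4 was lower than these 3. Sox2, a progenitor factor, stood at 89.8, 69.3, 70.7 and 95.2 CPM against 2.54, 8.37, 3.26 and 1.66 CPM (4.33 ± 0.45). The factors that direct the other anterior lobe lineages were low in both sets, with Pou1f1 at 28 reads in all in the Pomc-high and 1 read in the Calca-high set, Nr5a1 at 67 and 1 reads and Neurod1, which acts on Pomc in corticotrophs, at 26 and 0.

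Of 21 genes of Pomc-producing cells, 17 were tested, and 9 were higher in Pomc-high and 0 higher in Calca-high tumours (1 without T8). Pomc itself, which the rule used, stood at 230428, 181608, 215070.00 and 93441 CPM against 64.3, 4.16, 3.58 and 4.03 CPM. T8 had the lowest Pomc of its set and T1 the highest of the other. Drd2, the dopamine receptor through which the hypothalamus restrains melanotrophs, stood at 365, 353, 313 and 184 CPM against 1.27, 2.20, 1.41 and 1.84 CPM (7.46 ± 0.29). The receptors for corticotropin-releasing hormone and vasopressin that stimulate corticotrophs were low, with Crhr1 at 5.48, 2.74, 6.39 and 6.62 CPM against 0.951, 0.672, 1.02 and 1.42 CPM and Avpr1b at 6.12, 4.14, 20.8 and 17 CPM against 0.317, 0.367, 0.256 and 0.237 CPM. Among the enzymes that cut Pomc, the 2 convertases went different ways: Pcsk2, which makes melanotropins, stood at 4066, 5364, 4556 and 2557 CPM against 2419, 2387, 1735 and 2494 CPM (0.87 ± 0.22), and Pcsk1, which makes corticotropin, stood at 84.5, 153, 90.7 and 96.3 CPM against 447.5, 354, 363 and 480.1 CPM (-1.95 ± 0.20). Pam, which amidates both melanotropin and calcitonin, overlapped between the sets (423 to 486 and 347 to 495 CPM).

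**Figure D2:**
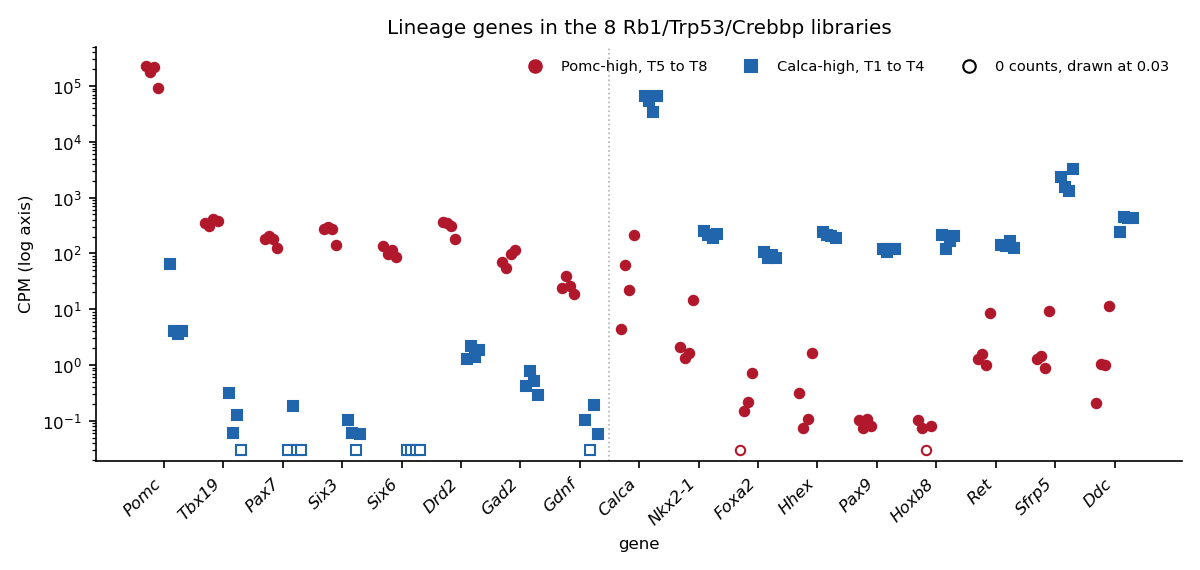
CPM (log axis) of 17 lineage genes in each of the 8 Rb1/Trp53/Crebbp libraries, red circles for T5 to T8 and blue squares for T1 to T4, with open symbols at 0.03 for 0 reads. The sets do not overlap for any of the 17 genes. This was fixed in advance, since Pomc and Calca made the split and the others were picked from genes counted as apart. Among the genes on the right T8 is the highest Pomc-high library for Calca, Nkx2-1, Foxa2, Hhex, Ret, Sfrp5 and Ddc.

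Foregut endoderm factors were higher in the Calca-high tumours. Of 30 such factors, 16 were tested, with 9 higher in Calca-high and 2 higher in Pomc-high tumours (Foxp2 and Hnf4g). Nkx2-1 stood at 256, 211, 188.5 and 218.5 CPM in T1 to T4 and at 2.11, 1.33, 1.65 and 14.4 CPM in T5 to T8 (-5.44 ± 0.73, and -7.03 ± 0.20 without T8). The value of T8 was several times that of T5 to T7, and T8 also had the astroglial genes described above. Foxa2 stood at 107, 83.3, 92.9 and 81.6 CPM against 0, 0.148, 0.220 and 0.727 CPM (-8.24 ± 0.37, and -9.41 ± 0.30 without T8) and Foxa1 at 91.6, 133, 83.1 and 126 CPM against 0.422, 0.148, 0.110 and 1.13 CPM (-7.82 ± 0.42, and -8.89 ± 0.35 without T8). Foxa1 and Foxa2 are pioneer factors that open chromatin in endoderm. Hhex, needed for thyroid and liver buds, stood at 246, 211.5, 205 and 192 CPM against 0.316, 0.0740, 0.110 and 1.62 CPM (-8.55 ± 0.48, and -10.33 ± 0.26 without T8). Pax9, a factor of the pharyngeal pouches, stood at 118.5, 107, 119 and 118 CPM against 0.105, 0.0740, 0.110 and 0.0808 CPM (-10.18 ± 0.15). Its spread was small within each set.

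Factors of thyroid follicular cells were also on this side. Pax8 stood at 10.4, 6.23, 4.93 and 8.0 CPM against 0, 0.0740, 0.110 and 0.242 CPM (-5.92 ± 0.53, and -6.67 ± 0.56 without T8), and Foxe1 at 3.70, 2.69, 2.05 and 6.81 CPM against 2 reads in all Pomc-high libraries. Tg and Sftpb, named above, belong to cells that also use Nkx2-1, and the part of such cells in the Nkx2-1 reads of T1 to T4 was not tested. Isl1, a LIM factor of several endocrine and neural cells, stood at 136.5, 124, 111.5 and 99.9 CPM against 0.949, 0.518, 0.991 and 7.91 CPM (-5.44 ± 0.70, and -7.21 ± 0.22 without T8). Foxp2 was on the other side, at 25.3, 19.9, 27.6 and 28.2 CPM against 0.106, 0.611, 0.256 and 0.356 CPM (6.12 ± 0.315).

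Calca stood at 66802, 53393, 34466 and 67489 CPM in T1 to T4 and at 4.43, 60.8, 21.8 and 213 CPM in T5 to T8, and gene counts do not separate calcitonin from CGRP. Of 11 genes of calcitonin peptides and their receptors, 10 were tested and 4 were higher in Calca-high tumours, none in Pomc-high. Calcb, the second CGRP gene, stood at 4.54, 6.05, 10.5 and 5.75 CPM, and the Pomc-high libraries had 3 reads, a ratio of 102-fold (95% exact counting interval 34.8 to 499). Iapp, which encodes amylin, had 101 reads in the Calca-high set and 0 in the other. Ramp1, which turns the calcitonin receptor-like receptor into a CGRP receptor, stood at 50, 42.6, 24.2 and 32.5 CPM against 0.949, 0.148, 0.220 and 11.9 CPM (-3.44 ± 1.04, and -6.47 ± 0.48 without T8). Its partner Calcrl was low in both sets, at 0.960 to 1.37 and 1.90 to 4.44 CPM.

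Hox genes were close to 0 in the Pomc-high set. Of 39 Hox genes in the tables, 11 passed the filter, and each of the 11 was counted as higher in Calca-high tumours. They passed through that set alone, so the count does not bear on the other 28. Most of the Hox reads came from the Hoxb cluster, with 8 of 10 tested and a sum of 423 to 617 CPM per library against 0.110 to 0.888 CPM in the Pomc-high tumours. Hoxb8 stood at 218, 122, 168 and 208 CPM and had 3 reads in the 4 Pomc-high libraries together, a ratio of 2591.5-fold (95% exact counting interval 886.5 to 12569). Hoxb3 stood at 74.5, 60.8, 62.8 and 65.0 CPM, a ratio of 960.1-fold (95% exact counting interval 328 to 4658), Hoxb2 at 56.0, 53.6, 49.1 and 45 CPM and Hoxb5 at 64.5, 61.1, 50.4 and 42.8 CPM, the last 2 with 1 Pomc-high read each. Hoxb9, at the 5' end of the cluster, stood at 33.7, 8.01, 10.5 and 7.82 CPM and was highest in T1.

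The other clusters were lower and less even. Hoxc genes summed to 6.81 to 11.7 CPM and Hoxa genes to 1.100 to 1.90 CPM in T1 to T4. Hoxd genes ranged from 1.66 to 132 CPM: Hoxd8 stood at 31.9, 4.46, 44.3 and 0.830 CPM, so T1 and T3 carried it, T2 had less and T4 nearly none. Hox genes give cells their place along the body axis, with Hoxb genes on in the hindbrain, spinal cord and posterior foregut and off in the forebrain and pituitary.

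The receptor Ret and its ligands lay on opposite sides. Ret, the tyrosine kinase that is mutated in hereditary medullary thyroid cancer, stood at 143, 135.5, 168 and 126 CPM in T1 to T4 and at 1.27, 1.55, 0.991 and 8.48 CPM in T5 to T8 (-5.48 ± 0.60, and -6.77 ± 0.19 without T8). Gdnf, its ligand, stood at 24.0, 39.3, 25.8 and 19.1 CPM against 0.106, 0, 0.192 and 0.0593 CPM (8.15 ± 0.46, and 8.89 without T3), and Nrtn, the ligand neurturin, stood at 72.6, 29.4, 37.0 and 30.1 CPM against 8.77, 6.11, 7.93 and 8.83 CPM (2.42 ± 0.31). The binding co-receptors differed less. Gfra1, which pairs with GDNF, overlapped between the sets (18.2 to 40.7 and 18.4 to 38.8 CPM), and Gfra4, the persephin receptor of C cells, stood at 78.2, 106, 81.0 and 52.4 CPM against 156, 151.5, 174 and 178 CPM (-1.06 ± 0.18). In all, 8 of 11 genes were tested, with 2 higher in Pomc-high and 1 higher in Calca-high tumours.

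Of 28 neuroendocrine bHLH, zinc-finger and homeobox factors, 15 were tested, with 1 higher in Pomc-high and 4 in Calca-high tumours (3 without T8). Neurog3, the bHLH factor of endocrine progenitors of gut and pancreas, stood at 64.1, 10.2, 23.3 and 51.4 CPM against 0, 0.222, 0 and 0.242 CPM (-8.02 ± 0.925). Nfib, a chromatin-opening factor amplified in mouse small-cell lung cancer, stood at 583, 793, 646 and 727 CPM against 65.0, 58.7, 69.6 and 61.9 CPM (-3.43 ± 0.13), and Onecut2, a homeobox factor of neural and endocrine cells, at 51.4, 58.5, 69.7 and 54.9 CPM against 4.64, 8.80, 5.39 and 8.56 CPM (-3.08 ± 0.21). Prox1, a homeobox factor of endocrine and lymphatic cells, stood at 105, 120.3, 159 and 128 CPM against 25.2, 41.7, 30.5 and 27.4 CPM (-2.03 ± 0.18). Its difference was under the 4-fold minimum without T3, T5 or T8, at -1.91, -1.95 and -1.97. Insm1, a zinc-finger factor of neuroendocrine cells in general, differed less, at 127.5, 131, 113 and 98.0 CPM against 211, 196, 218 and 199 CPM (-0.81 ± 0.11).

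Of 22 granin and hormone-processing genes, all tested, 2 were counted as higher in Pomc-high tumours and 0 in Calca-high ones, a share near the 10.1% of all genes. The ranges of 13 did not overlap, and the median log2 difference was 0.19 against -0.01 over all genes. Chga, the granin of dense-core vesicles, stood at 5913.5, 4999, 4603 and 3864 CPM and 5444, 5823, 3144 and 5306 CPM, with overlap. The granins Chgb (-0.57 ± 0.13) and Scg2 (-1.235 ± 0.28) were somewhat higher in Calca-high tumours, without overlap but under 4-fold. Those counted were Sytl4, a Rab27 effector of granule exocytosis, at 167, 137, 190.03 and 189.8 CPM against 5.18, 5.50, 5.12 and 4.80 CPM (5.05 ± 0.14), and Vgf, a granin-like precursor, at 209, 274, 206 and 150.04 CPM against 24.0, 30.5, 79.2 and 41.1 CPM (2.26 ± 0.38).

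Of 22 general neuronal and synaptic genes, all tested, 8 were higher in Pomc-high (7 without T8) and 1 in Calca-high tumours, with a median of 0.73. The calcium sensors of vesicle fusion lay on opposite sides: Syt7 stood at 605, 523, 570.3 and 641 CPM against 51.2, 45.6, 53.9 and 55.9 CPM (-3.50 ± 0.11), while Syt1 stood at 584, 501.5, 517 and 519 CPM against 52.3, 52.0, 89.1 and 21.8 CPM (3.30 ± 0.37). Dll3, a Notch ligand that marks neuroendocrine tumours, stood at 101.5, 107, 93.5 and 45.5 CPM against 10.5, 4.28, 10.2 and 8.89 CPM (3.37 ± 0.36). The neurofilaments Nefl (3.27, 4.14, 2.31 and 41.7 CPM) and Nefm (11.5, 12.4, 8.26 and 28.7 CPM) were highest in T8, and their log2 differences were 4.99 ± 1.35 and 4.17 ± 0.50, or 3.02 ± 0.71 and 3.67 ± 0.35 without it. That of Nefl was 6.22 without T1.

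Peptide hormone genes differed in level between the sets. Of 39 neuropeptide genes, 16 were tested, with 3 higher in Pomc-high and 6 higher in Calca-high tumours, and 3 and 10 of 17 without T8. Pnoc, the precursor of nociceptin, stood at 2146, 1093, 761 and 2399 CPM against 0.527, 2.22, 1.32 and 13.7 CPM (-8.43 ± 1.02, and -10.11 ± 0.71 without T8). Sst, which encodes somatostatin, a peptide of C cells and other endocrine cells, stood at 732, 612.5, 837 and 323 CPM against 0.105, 0.222, 1.32 and 18.1 CPM (-6.93 ± 1.21, and -10.25 ± 0.64 without T8). The genes of the gut and islet peptides PYY (Pyy, 21.2, 17.3, 8.13 and 10.6 CPM), pancreatic polypeptide (Ppy, 40.0, 9.29, 5.38 and 9.42 CPM) and glucagon (Gcg, 1.27, 3.79, 4.22 and 11.8 CPM) had 1, 1 and 0 reads in the Pomc-high set. Ppy was highest in T1 and Gcg in T4. On the Pomc-high side Tac1, the substance P precursor, stood at 9.49, 38.1, 13.3 and 25.6 CPM against 0.211, 0.183, 0.128 and 0.0593 CPM (7.20 ± 0.61) and Gal, the galanin gene, at 10.9, 12.9, 12 and 23.7 CPM against 0.951, 1.59, 1.6 and 2.25 CPM (3.19 ± 0.33).

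The receptors for such signals also differed. Of 43 peptide and monoamine receptors, 18 were tested, with 7 higher in Pomc-high and 6 in Calca-high tumours. Without T8 this balance turned, to 6 and 10 of 19. In the Pomc-high set Sstr1, a somatostatin receptor, stood at 110.4, 44.0, 89.0 and 132 CPM against 0.423, 0, 1.09 and 0.0593 CPM (7.91 ± 0.70, and 9.51 without T3) and Htr2c, a serotonin receptor, at 3.59, 7.47, 8.81 and 12.6 CPM against 0 reads (at least 162-fold higher). In the Calca-high set Casr, the calcium-sensing receptor that controls calcitonin release, stood at 106, 129, 197 and 181 CPM against 7.80, 18.8, 8.70 and 12 CPM (-3.67 ± 0.32). Parathyroid cells make Casr too. Of their defining genes, Pth stood at 0.106, 51.6, 0.128 and 0.178 CPM in T1 to T4, so T2 held parathyroid transcripts, and Gcm2 had 10 reads over the 4. The part of parathyroid cells in the Casr reads was not tested. Vipr1 stood at 83.7, 57.0, 103 and 114.5 CPM against 1.79, 1.70, 1.76 and 0.485 CPM (-5.98 ± 0.36), and the incretin receptor Gipr at 37.3, 21.7, 25.8 and 18.3 CPM against 0.949, 0.666, 1.21 and 2.50 CPM (-4.25 ± 0.40).

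Of 18 monoamine and acetylcholine genes, 10 were tested, with 2 higher in each set, or 2 in Pomc-high and 3 in Calca-high of 12 without T8. Ddc, which makes dopamine and serotonin from their amino acid precursors, stood at 244, 450.4, 429.7 and 429 CPM against 0.211, 1.04, 0.991 and 11.5 CPM (-6.75 ± 0.92, and -8.95 ± 0.40 without T8), and Gch1, which makes the cofactor of the step before, at 46.7, 73.3, 53.2 and 47.5 CPM against 10.5, 15, 14.0 and 13.9 CPM (-2.04 ± 0.17). On the other side were Ache, which breaks down acetylcholine (53.4, 29.8, 46.0 and 57.3 CPM against 1.48, 1.28, 5.95 and 0.948 CPM, 4.245 ± 0.57, and 5.26 without T3), and Tph2, the neuronal enzyme of serotonin synthesis (1.48, 1.11, 1.21 and 0.808 CPM against 0, 0, 0.320 and 0.119 CPM, 3.17 ± 0.71). Of 44 genes of GABA, glycine and glutamate signalling, 33 were tested, with 11 higher in Pomc-high and 2 higher in Calca-high tumours (11 and 4 without T8). Gad2, which makes GABA, stood at 71.2, 55.5, 96.2 and 114 CPM against 0.423, 0.794, 0.512 and 0.296 CPM (7.33 ± 0.34). Receptor subunits went with it: the glycine receptor gene Glra2 stood at 34.9 to 45.5 against 0 to 0.211 CPM, the kainate receptor gene Grik1 at 40.2 to 57.7 against 0.106 to 0.183 CPM and the GABA-A receptor gene Gabra2 at 16.7 to 29.0 against 0.0640 to 0.306 CPM. Melanotrophs are innervated by GABA and dopamine fibres from the hypothalamus.

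Of 29 sodium and calcium channel genes, 27 were tested, with 3 higher in Pomc-high and 2 in Calca-high tumours. Cacna1h, a T-type calcium channel, stood at 131, 131, 108 and 157 CPM against 0.527, 0.518, 0.550 and 16.5 CPM, and its difference was -4.80 ± 0.997 with T8 and -7.93 ± 0.22 without it. The auxiliary alpha2delta subunits also lay on opposite sides. Cacna2d1 stood at 235, 314, 277 and 224 CPM against 17.1, 11.6, 21.1 and 16.9 CPM (3.98 ± 0.195) and Cacna2d2 at 17.3, 17.8, 18.3 and 34.3 CPM against 192, 134, 152 and 164.5 CPM (-2.87 ± 0.24).

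Epithelial genes were mostly on the Calca-high side. Of 41 genes of adhesion, tight junctions and keratins, 39 were tested, with 11 higher in Calca-high and 1 higher in Pomc-high tumours, and the median was -1.35. Cdh1, the epithelial cadherin, stood at 85.2, 74.0, 71.6 and 56.7 CPM against 1.16, 1.48, 0.991 and 5.89 CPM (-4.85 ± 0.50, and -5.85 ± 0.21 without T8), and Krt19, a keratin of simple epithelia, at 83.5, 127, 80.1 and 107 CPM against 0.949, 0.740, 0.550 and 0.969 CPM (-6.93 ± 0.23). The claudins Cldn4 (-5.48 ± 0.28) and Cldn7 (-5.24 ± 0.39), which seal tight junctions, were higher in Calca-high tumours, and Cldn9 was the exception, at 44.1, 27.2, 37.4 and 42.2 CPM against 0.845, 0.550, 0.192 and 0.533 CPM (6.20 ± 0.31). Other epithelial genes were present in both sets: Epcam overlapped at 475 to 712.5 and 479 to 929 CPM, and Krt8 stood at 147 to 201 and 598 to 669.6 CPM. Of 21 other cadherins, 15 were tested and 2 were counted on each side, with Cdh10 at 12.2, 12.8, 15 and 14.9 CPM against 0, 0.244, 0.192 and 0.119 CPM (6.41 ± 0.39) and the kidney and thyroid cadherin Cdh16 at 6.13, 4.16, 4.10 and 7.94 CPM against 0.422, 0.370, 0.110 and 0.485 CPM (-3.94 ± 0.42).

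Of 42 axon guidance genes, 40 were tested, 1 higher in Pomc-high and 3 in Calca-high tumours (1 and 5 without T8). With T8 this was 10% of those tested, near the 10.1% of all genes. The receptor and ligand of 1 pair separated: Dcc, the netrin receptor, stood at 126, 149.98, 123 and 101 CPM against 0.106, 0.428, 0.576 and 0.415 CPM (8.23 ± 0.24), and Ntn1, netrin-1, at 67.8, 183, 81.5 and 157 CPM against 21.2, 22.3, 24.8 and 19.9 CPM (-2.48 ± 0.32). T2 and T4 had more Ntn1 than T1 and T3. The semaphorin Sema3c (-3.83 ± 0.55) and its receptor subunit Plxna2 (-2.71 ± 0.45, and -3.40 ± 0.22 without T8) were higher in Calca-high tumours. Of 25 Notch pathway genes, 24 were tested and 3 counted (12.5%, near the 10.1% of all genes). They were Dll3 in Pomc-high, and in Calca-high Dll1, a ligand (10.4, 7.52, 6.78 and 8.83 CPM against 0.105, 0.814, 0.440 and 1.86 CPM, -3.305 ± 0.55, and -4.08 ± 0.43 without T8), and Lfng, a Fringe that modifies the receptor (47.7, 57.3, 82.9 and 44.2 CPM against 8.65, 13.1, 11 and 11.7 CPM, -2.38 ± 0.22).

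Among 47 Wnt, BMP and TGF-beta genes, 30 were tested, 5 higher in Pomc-high and 7 in Calca-high tumours, or 3 and 14 of 35 without T8. Sfrp5, a secreted Wnt inhibitor of the foregut, stood at 2369, 1528, 1297 and 3287 CPM against 1.27, 1.48, 0.881 and 9.21 CPM (-9.31 ± 0.85, and -10.73 ± 0.51 without T8). Chrd, the BMP inhibitor chordin, stood at 131, 87.8, 76.7 and 61.5 CPM against 12.8, 16.9, 14.8 and 26.5 CPM (2.32 ± 0.29). The BMP receptor Bmpr1b (-3.44 ± 0.59, and -4.57 ± 0.29 without T8) and the Wnt receptor Fzd10 (-4.99 ± 0.50, and -6.14 ± 0.36 without T8) were higher in Calca-high tumours, and Wnt5b was higher in Pomc-high ones (42.9 to 66.9 against 7.5 to 11 CPM, 2.44 ± 0.18).

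Most proliferation genes were lower in the Pomc-high tumours, by less than 4-fold. Of 42 cell-cycle and E2F genes, all tested, the ranges did not overlap for 35, beside 49.0% of all genes tested. At 4-fold or more 2 were counted, beside 10.1% of all genes, and the median was -0.90 against -0.01 over all genes. Mki67, the proliferation antigen, stood at 134, 203, 141 and 137 CPM against 544, 474, 574.5 and 445.5 CPM (-1.73 ± 0.16). Pcna, the DNA clamp of replication, stood at 157, 214, 159 and 156 CPM against 382, 322, 306 and 323 CPM (-0.96 ± 0.13), and T6 was the highest Pomc-high tumour for both. The 2 counted were E2f8, a repressor of the E2F family, at 75.1, 49.6, 72.8 and 70.1 CPM against 9.60, 16.4, 9.80 and 7.27 CPM (-2.63 ± 0.25), and Cdk6, the kinase that phosphorylates Rb, on the Pomc-high side at 2.32, 4.29, 3.41 and 1.86 CPM against 0.845, 0.122, 0.640 and 0.593 CPM (2.46 ± 0.50).

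Of the 3 engineered genes, Crebbp stood at 42.8, 62.4, 54.5 and 49.0 CPM in T5 to T8 and at 67.4, 78.8, 93.4 and 75.8 CPM in T1 to T4 (-0.60 ± 0.14), without overlap. Rb1 stood at 42.7, 56.8, 43.3 and 46.0 CPM against 97.3, 71.1, 69.6 and 73.2 CPM (-0.72 ± 0.14), also without overlap, and Trp53 overlapped at 15.4 to 17.5 and 11.8 to 17.4 CPM. Whole-gene counts do not show whether an exon was lost, so they do not check the alleles. Ep300, the close relative of Crebbp, stood at 94.7, 106, 104 and 106 CPM against 144, 148.5, 163 and 149 CPM (-0.56 ± 0.082). Among 33 acetyltransferase, CREB-family and cAMP-target genes, all tested, 3 were counted (9.09%, near the 10.1% of all genes), and the median was -0.16. Crem, a CREB relative with an inducible repressor form, stood at 84.6, 131, 105 and 63.8 CPM against 15.5, 15, 13.1 and 12.9 CPM (2.77 ± 0.21), and Creb3l1, a membrane-bound CREB-like factor, at 70.8, 79.5, 62.3 and 29.6 CPM against 8.98, 8.86, 5.70 and 12 CPM (2.77 ± 0.34). Cited1, a partner of CBP, was on the other side at 54.2, 25.7, 78.4 and 38.3 CPM against 4.85, 3.63, 5.95 and 10.7 CPM (-2.96 ± 0.44). Creb1 itself overlapped between the sets (50.3 to 62.2 and 56.4 to 71.5 CPM).

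**Figure D3:**
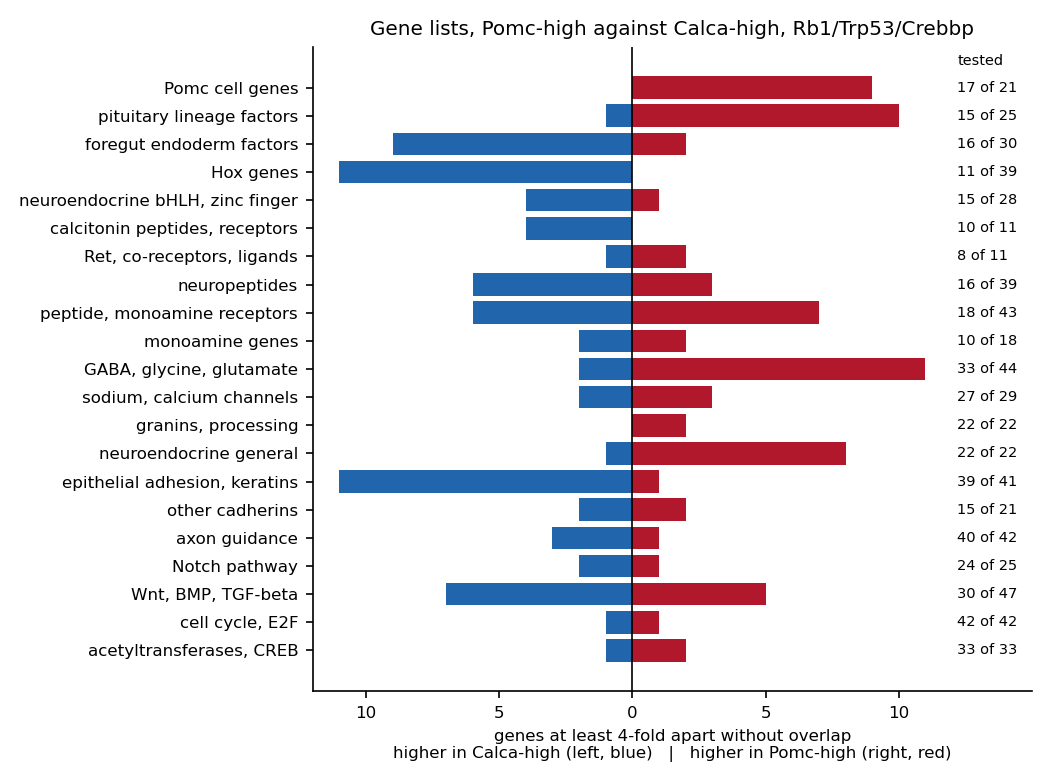
Number of genes in each of 21 lists that were at least 4-fold apart without overlap in the 8 Rb1/Trp53/Crebbp libraries, higher in Pomc-high to the right and higher in Calca-high to the left, with the number tested out of those in the tables. Hox genes (11) and epithelial genes (11) have the longest bars on the Calca-high side and GABA, glycine and glutamate genes (11) on the Pomc-high side.

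Several of the largest differences were outside the lists. On the Pomc-high side they were Samd3 (27.7, 32.8, 28.0 and 18.0 CPM, 0 reads in Calca-high, at least 517-fold higher), the orphan receptor gene Gpr6 (23.7, 29.7, 29.4 and 15.3 CPM, 0 reads, at least 474-fold higher), the ventral forebrain homeobox gene Vax1 (32.7, 24.3, 27.7 and 17.4 CPM, 1 read) and the carboxypeptidase gene Cpz (25.5, 29.6, 23.6 and 10.2 CPM, 1 read). All 4 were lowest in T8. On the Calca-high side Ahsg, the plasma protein fetuin-A, stood at 50.2, 212.5, 118 and 152 CPM with 2 reads in the other set, a ratio of 3185-fold (95% exact counting interval 881.5 to 26306). The lipocalin gene Lcn13 stood at 321, 1555.5, 100.2 and 302 CPM against 0.633, 0.592, 0 and 0.242 CPM, and T2 had several times the level of the others. The homeobox gene En1 stood at 39.4, 40.8, 36.2 and 23.6 CPM, the tubulin gene Tubb1 at 107, 294, 101 and 412 CPM, the protease inhibitor gene Slpi at 36.7, 84.1, 53.7 and 158 CPM and Clca4 at 25.5, 31.7, 45.9 and 7.53 CPM, each at 0.44 CPM or below in T5 to T8.

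The same split was made in the 9 Rb1/Trp53 tumours, whose labels name no Crebbp allele and which entered the counts above through the shared TMM factors alone. There, 6 were Pomc-high (T2 and T5 to T9) and 3 Calca-high (T1, T3 and T4), and 1977 of 15143 genes (13.1%) were counted, 964 (6.37%) higher in Pomc-high and 1013 (6.69%) in Calca-high. Of the genes tested in both genotypes, 627 were counted as higher in Pomc-high tumours with the Crebbp allele and 835 without it, and 482 were in both lists, which is 76.9% of the first and 57.7% of the second. For the Calca-high side the lists held 788 and 866 genes and shared 588, or 74.6% and 67.9%. On each side 13 genes had the opposite sign in the other genotype. Tbx19 differed by 13.21 ± 0.31 in Rb1/Trp53 tumours, Hhex by -9.09 ± 0.24, Hoxb8 by -10.09 ± 0.20, Drd2 by 8.525 ± 0.53 and Foxa2 by -8.44 ± 0.15. The size of the Tbx19 value rests on 2 reads in the Rb1/Trp53 Calca-high libraries together.

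Whether the set difference itself differed between the genotypes was tested over all 17 libraries, with edgeR's quasi-likelihood test of the interaction and Benjamini-Hochberg adjustment. A positive value means that Pomc-high minus Calca-high was larger with the Crebbp allele. Of 15434 genes, 3531 (22.9%) passed, 1545 positive and 1986 negative, and 5730 (37.1%) had an unadjusted p under 0.05. Other features went with the genotype among the Calca-high tumours. The 3 of Rb1/Trp53 had 20361712 to 28140755 reads on genes and all had Y-linked reads, as among the 4 of Rb1/Trp53/Crebbp only T1 did. Their thyroid follicular genes summed to 2179 to 17076 CPM against 953 to 1330 CPM. Their fat genes summed to 56.7 to 286 against 19.2 to 38.7 CPM and their lung epithelial genes to 303 to 508 against 178 to 231 CPM. Endothelial genes summed to 105.3 to 128.6 against 60.2 to 81.6 CPM and lymphocyte genes to 17.01 to 37.8 against 3.496 to 8.98 CPM. The sums of fibroblast, macrophage, astroglial, parathyroid, skeletal muscle and anterior lobe genes overlapped between the Calca-high tumours of the 2 genotypes. In the Rb1/Trp53 Pomc-high set, T2 had Y-linked reads (Ddx3y 84.9 CPM) and T5 to T9 hardly any (0 to 0.0781 CPM). Apart from T2, the Rb1/Trp53 sets thus differed in Y-linked reads. The part of these features in the Rb1/Trp53 set difference and in the difference between genotypes was not tested.

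For the lineage lists the counts are set beside the 22.9% of all genes, and a gene that did not pass is not shown to have equal differences. None of 16 Hox genes passed with edgeR (0 adjusted, and 0 at an unadjusted p under 0.05), against 2 with DESeq2 and 1 with limma-voom. For the 19 pituitary factors tested these counts were 0 adjusted, 1 unadjusted, 0 by DESeq2 and 1 by limma-voom. Of 21 foregut factors, 3 were positive and 1 negative. Pax9 was the negative one: it stood at 68.7, 80.2 and 68.6 CPM in the Rb1/Trp53 Calca-high tumours T1, T3 and T4, against 107 to 119 CPM with the Crebbp allele, and at 0.230 to 1.40 (median 0.521) CPM in the Rb1/Trp53 Pomc-high tumours, against 0.0740 to 0.110 CPM. Its set difference was thus larger with the Crebbp allele (-3.33 ± 0.59, adjusted p = 0.00137), with Pomc-high values that rest on few reads. Nkx2-1 gave 2.28 ± 0.76 (adjusted p = 0.0422), but 0.70 (adjusted p = 0.193) without T8, and leaving out any 1 of 12 of the 17 libraries ended the call. Foxp2 gave 2.40 ± 0.53 (adjusted p = 0.00551).

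Among 16 neuroendocrine factors, 6 passed, beside 22.9% of all genes, and all 6 were negative. Onecut2 was high in 1 of the 4 groups. It stood at 51.4, 58.5, 69.7 and 54.9 CPM in the Rb1/Trp53/Crebbp Calca-high tumours, 2.51, 9.51 and 5.67 CPM in the Rb1/Trp53 Calca-high ones and 3.22 to 7.47 (median 6.73) CPM in the Rb1/Trp53 Pomc-high ones. Its set difference was 0.068 ± 0.37 without the Crebbp allele, and the difference between genotypes was -3.15 ± 0.46 (adjusted p = 0.000422). Prox1 showed the same order, with 41.6, 42.4 and 47.3 CPM in Rb1/Trp53 Calca-high and 32.6 to 60.7 (median 40.0) CPM in Rb1/Trp53 Pomc-high tumours (-1.98 ± 0.29, adjusted p = 0.000371). For Nfib, 390.5, 450.2 and 440.03 CPM in the Rb1/Trp53 Calca-high tumours compared with 583 to 793 CPM (-0.82 ± 0.18, adjusted p = 0.00442).

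Of 9 genes of Ret, its co-receptors and ligands, 3 passed, beside 22.9% of all genes. Ret stood at 317, 269.9 and 427 CPM in the Rb1/Trp53 Calca-high tumours against 126 to 168 CPM with the Crebbp allele (2.77 ± 0.66, adjusted p = 0.00938, and 1.47, adjusted p = 0.0151, without T8). Nrtn differed by 1.21 ± 0.38 (adjusted p = 0.03, and up to 0.0923 where leaving out 1 of 4 libraries ended the call). Gfra1, singled out after its values had been seen, stood at 5.75, 2.88 and 0.953 CPM in the Rb1/Trp53 Calca-high tumours, against 18.4, 31.8, 38.8 and 30.0 CPM with the Crebbp allele, and at 49.2 to 71.5 (median 58.5) CPM in the Rb1/Trp53 Pomc-high ones (-4.355 ± 0.53, adjusted p = 0.000138). Among Calca-high tumours, those with the Crebbp allele had the lower Ret and the higher Gfra1 values.

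The genes with the smallest adjusted p on the negative side were genes that were lowest in the Rb1/Trp53 Calca-high tumours. Mdga2, a cell adhesion protein of synapses, stood at 2.51, 1.55 and 1.91 CPM in the Rb1/Trp53 Calca-high tumours and 18.4, 18.6, 19.5 and 25.1 CPM in the Rb1/Trp53/Crebbp ones, near the Pomc-high level of both genotypes (21.4 to 33.6 and 22.5 to 32.4 CPM). Its difference was -3.345 ± 0.26 (adjusted p = 2.21e-06). Ryr3, an intracellular calcium channel, stood at 0.365, 0.227 and 0.251 and 2.85, 3.79, 2.62 and 4.27 CPM in the Calca-high tumours of the 2 genotypes (-4.53 ± 0.41, adjusted p = 9.19e-06). The others were Zfp92 (-2.23), Sh3rf3 (-4.41), the ciliary gene Evc (-2.68), Ildr2 (-2.97), the matrix gene Smoc1 (-2.14) and the synaptic adhesion gene Slitrk1 (-2.93), with adjusted p-values from 2.49e-06 to 2.37e-05. In each of these 8 genes every Rb1/Trp53 Calca-high library lay below every library of the other groups.

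On the positive side the Rb1/Trp53 Calca-high tumours were the highest group for most genes. Hadh, an enzyme of fatty acid oxidation, stood at 168, 124 and 159 CPM there, 52.7, 43.1, 58.5 and 51.0 CPM in the Rb1/Trp53/Crebbp Calca-high tumours and 19.2 to 25.3 and 25.3 to 29.5 CPM in the Pomc-high ones (1.83 ± 0.16, adjusted p = 5.33e-06). Th, which makes the dopamine precursor, stood at 38.2, 19.3 and 10.9 CPM, 5.70, 1.89, 4.16 and 2.61 CPM, 0.383 to 1.38 CPM and 1.37 to 4.14 CPM in the same order. Its set difference was -5.02 ± 0.40 without the allele and -0.18 ± 0.43 with it, and these differed by 4.84 ± 0.62 (adjusted p = 0.000171), or by 4.24 without T1 of Rb1/Trp53. Ripply3 (2.38), Dnajc12 (1.41), Setdb2 (1.91) and Tom1l1 (0.94) were also highest in that group, with adjusted p-values of 0.000206 or below. Smo, the transducer of hedgehog signals, was different: it stood at 14.8, 14.1, 14.9 and 15.4 CPM in the Rb1/Trp53/Crebbp Pomc-high tumours and at 4.34 to 8.18 (median 5.21) CPM in the Rb1/Trp53 ones (2.88 ± 0.38, adjusted p = 0.000198). These Pomc-high values account for only a part of the Smo difference, and the rest lies in the Calca-high tumours. Mrps6 gave 1.59 (adjusted p = 0.000211).

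**Figure D4:**
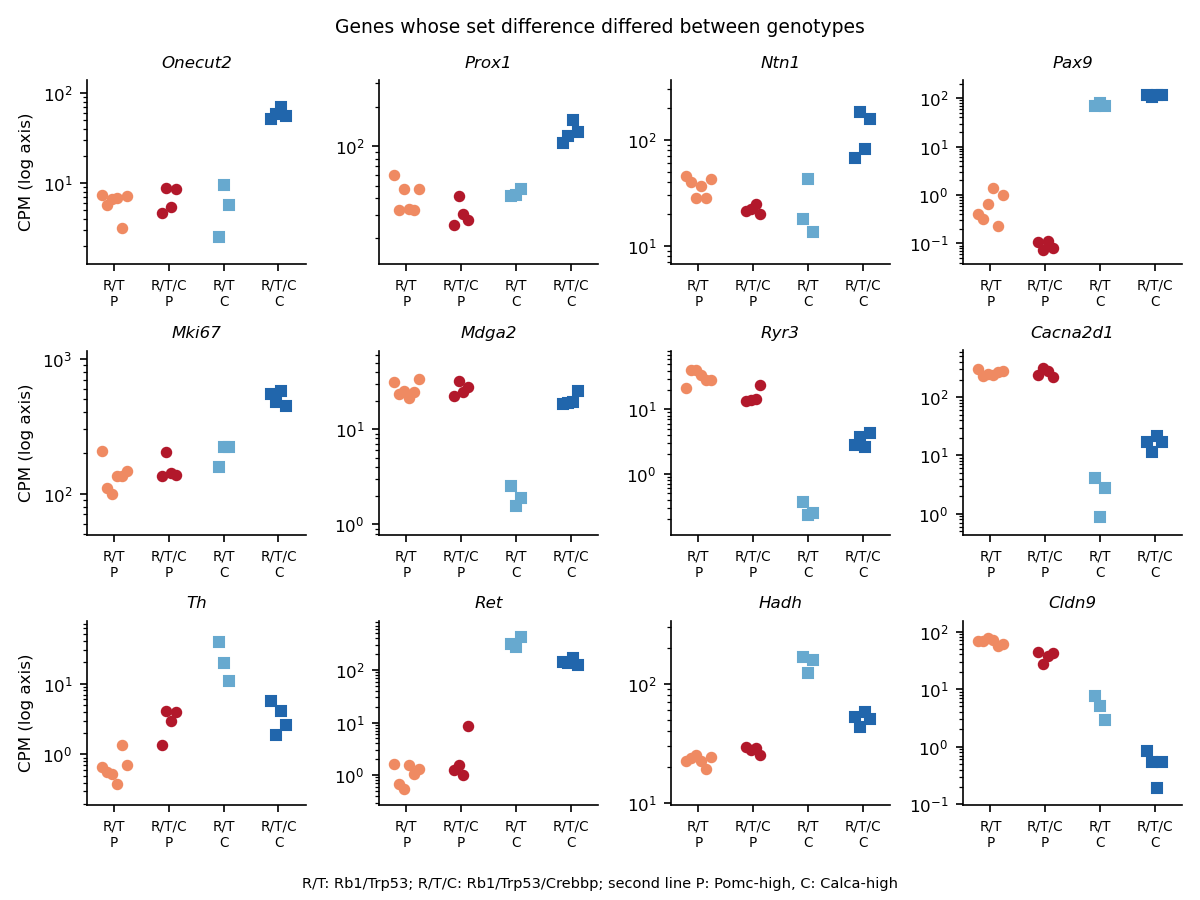
CPM (log axes, separate for each gene) of 12 genes whose set difference differed between genotypes, with 1 point per library in the 4 groups of genotype and set. Onecut2, Prox1, Ntn1 and Mki67 are highest in the Rb1/Trp53/Crebbp Calca-high tumours, and Mdga2, Ryr3 and Cacna2d1 are lowest in the Rb1/Trp53 Calca-high ones.

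Among the lists with a share past the threshold above the 22.9% of all genes were axon guidance (18 of 42, 3 positive and 15 negative), other cadherins (7 of 17, all negative), sodium and calcium channels (11 of 28, 3 and 8) and granins with processing genes (10 of 22, 7 and 3). No test compared these shares with those of other genes. Ntn1 stood at 17.8, 42.4 and 13.4 CPM in the Rb1/Trp53 Calca-high tumours against 67.8, 183, 81.5 and 157 CPM with the Crebbp allele (-3.06 ± 0.50, adjusted p = 0.00103, and -3.72 without T3 of Rb1/Trp53). Plxna2 (-1.69, adjusted p = 0.0211) and Sema3c (-2.12, adjusted p = 0.0439) differed the same way, but leaving out any 1 of 11 libraries ended the call for Sema3c (adjusted p up to 0.0843), and Plxna2 gave -2.38 without T8. Cacna2d1 stood at 4.11, 0.871 and 2.76 CPM in the Rb1/Trp53 Calca-high tumours, against 17.1, 11.6, 21.1 and 16.9 CPM (-2.70 ± 0.40, adjusted p = 0.000447). Cdh10 gave -2.60 ± 0.85 (adjusted p = 0.038, and up to 0.122 where leaving out 1 of 5 libraries ended the call) and Cldn9 gave 2.50 ± 0.42 (adjusted p = 0.000945), with 7.44, 5.0 and 2.86 CPM in the Rb1/Trp53 Calca-high tumours.

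Of 42 cell-cycle genes, 8 passed, beside 22.9% of all genes: 1 was positive and 7 negative. Mki67 stood at 158, 223 and 222 CPM in the Rb1/Trp53 Calca-high tumours and 544, 474, 574.5 and 445.5 CPM in the Rb1/Trp53/Crebbp ones, while the Pomc-high tumours overlapped at 98.9 to 206.5 and 134 to 203 CPM (-1.19 ± 0.28, adjusted p = 0.00755). Pcna did not pass (-0.14 ± 0.21, adjusted p = 0.663). Of 33 acetyltransferase and CREB genes, 9 passed, beside 22.9% of all genes: 2 were positive and 7 negative. Crebbp itself was one of them: its count was 53.5, 55.5 and 48.2 CPM in Rb1/Trp53 Calca-high and 39.6 to 116 (median 68.9) CPM in Rb1/Trp53 Pomc-high tumours, and its difference was -1.08 ± 0.32 (adjusted p = 0.024, and up to 0.0527 where leaving out 1 of 3 libraries ended the call). Ep300 went with it (-0.67 ± 0.20, adjusted p = 0.0233), Cited1 was positive (1.52 ± 0.47, adjusted p = 0.0291, and 0.0778 without T8, 1 of 3 libraries whose absence ended the call), and Crem did not pass (-0.33 ± 0.31, adjusted p = 0.462).

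**Figure D5:**
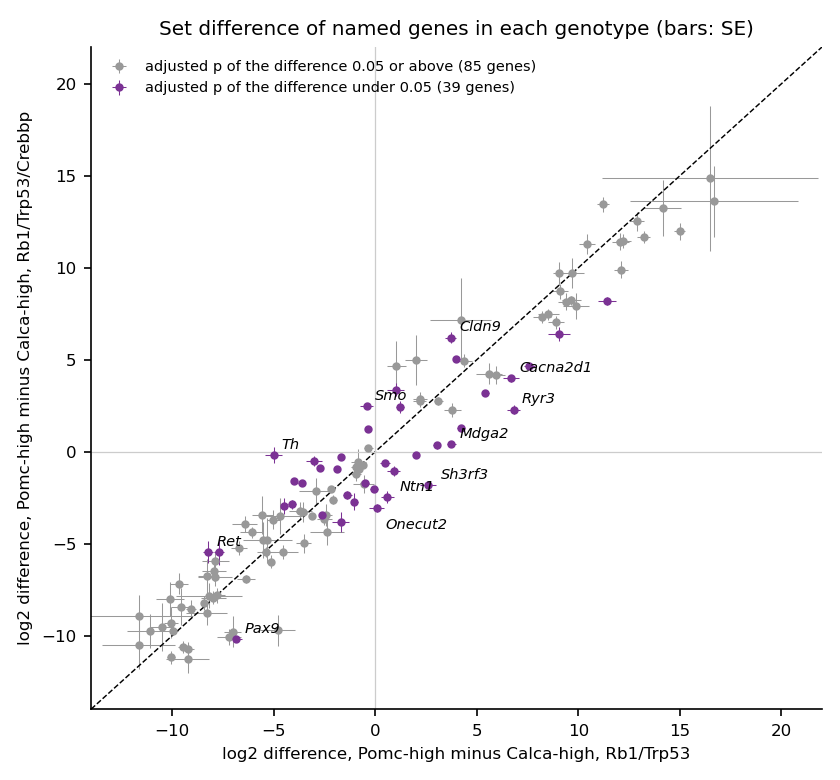
Log2 difference, Pomc-high minus Calca-high, of 124 named genes in the Rb1/Trp53 (horizontal) and Rb1/Trp53/Crebbp (vertical) tumours, with SE bars and a dashed line of equal difference. The 39 genes with an adjusted p of the difference under 0.05 are purple and 85 others grey, and Onecut2, Ntn1 and Sh3rf3 lie below the line and Th and Smo above it. Values of genes with 0 reads in a set depend on the prior count. Among the purple genes are those named for the smallest adjusted p of this difference, so the share of purple genes was partly fixed in advance.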

How the data were processed

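The submitters' processing notes list HTSeq 0.6.1, TopHat2 2.0.12 and bcl2fastq 1.8.2 and the build mm9. Oligo-dT selection enriched mRNA, per the labels' protocols. Neither the annotation nor a strand setting is given in the sources used here. Without them overlapping and antisense genes cannot be told apart. The authors deposited raw counts of 23284 genes per tumour, and the 5 summary rows of each table entered neither library sizes nor tests. No 2 libraries of a genotype and set agreed within sampling noise (chi-square per degree of freedom 8.30 or higher over 30 pairs, over genes with 10 or more reads in the pair).

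The analysis used edgeR 4.0.16 under R 4.3.3. TMM factors were computed once over all 17 libraries, genes were kept by filterByExpr, and robust quasi-likelihood fits gave log2 differences with SE (the absolute difference divided by the square root of F). The set contrast was fitted in the 8 libraries of the genotype and is a description. The difference between genotypes was tested over 17 libraries in 4 groups, with Benjamini-Hochberg adjustment over all genes and a threshold of 0.05. Tumours of different genotype with the same number did not deviate together, so the fits were not paired. Whether tumours of the same genotype came from the same animal could not be checked.

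The members and the 33 gene lists (755 entries, 754 matched, 5 through a synonym) were chosen with earlier results of these data known. Named genes are Pomc, Calca, Tbx19, Nkx2-1 and the engineered genes, the 12 largest differences in each direction averaging 20 CPM or more in the higher set, up to 4 counted members per list with at least 5 CPM (the 2 most abundant where fewer than 2 count), and the 8 smallest adjusted p-values per direction of the genotype difference with at least 5 CPM in a group. The rule passes over haemoglobins, gene models without a name and the genes Xist, Tsix, Ddx3y, Eif2s3y, Kdm5d and Uty. Other genes of the sex chromosomes were not left out. Members named beyond this, such as Lhx3, Pitx1, Sox2, Pcsk1, Chga, Sst, Cdh1, Foxp2, Ep300 and Gfra1, were chosen after their values had been seen. A few genes that the rule names are not reported here. Bounds against 0 reads use a floor of 3 counts over the group, and ratios with 1 to 3 reads have a 95% exact interval, both for counting error only. PCR copies were not marked by molecular identifiers.

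Tested on simulated counts, the set rule found 44% of genes simulated at 4-fold and 92% at 8-fold (14625 genes, 4 false calls). The genotype test found 68% and 88% (15237 genes, 6 false calls). The simulated libraries shared the same expected level of every gene, except that the changed genes were altered in the Rb1/Trp53/Crebbp Pomc-high libraries. They lacked the wide set differences and the outlying T8 of the data, so these shares may not carry over. The other settings were DESeq2 size factors, DESeq2 1.42.0, limma-voom (limma 3.58.1), no filter, other count rules, the tumour number as a block, each library left out, and TMM factors of the genotype alone, which was added after the data had been seen, as were list counts without T8. Promoters came from a RefSeq table of GRCm38.p6, and figures were drawn with matplotlib 3.10.9.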

Additional observations from a re-analysis of the deposited data

Results flagged for a closer look

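Single libraries stood apart from the 3 others of their set for 18 of 188 groups of 4 looked at (sums of the other-cell lists, and named genes averaging 5 CPM or more), by the ratio of the gap to the nearest library over the range. Chance marks about 1 in 20 such groups. In 7 of the 18 the library was T8 of the Pomc-high set: Gfap (155 CPM), Slc1a3 (128 CPM), Nefl (41.7 CPM), Cacna2d2 (34.3 CPM), Ryr3 (23.9 CPM), Pecam1 (10.7 CPM) and the sum of astroglial genes (1751 CPM) were above T5 to T7. T6 was above the others for Mki67 (203 CPM) and Pcna (214 CPM). In the Calca-high set T1 was above the others for Pomc (64.3 CPM), Rb1 (97.3 CPM), Ppy (40.0 CPM) and the sum of lymphocyte genes (8.98 CPM), and below them for Ddc (244 CPM). T2 was above the others for Lcn13 (1555.5 CPM) and the sum of fat genes (38.7 CPM) and below them for Pax9 (107 CPM), and T4 was above them for Mdga2 (25.1 CPM).

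The set difference differed between the genotypes (edgeR quasi-likelihood interaction, adjusted p under 0.05) for 40 of 126 named genes. Positive values were found for Ret (2.77), Nrtn (1.21), Nkx2-1 (2.28), Sytl4 (1.06), Dll3 (2.37), Cacna2d2 (1.25), Cldn9 (2.50), Cited1 (1.52), Fabp4 (2.52), Hadh (1.83), Ripply3 (2.38), Dnajc12 (1.41), Setdb2 (1.91), Th (4.84), Smo (2.88), Tom1l1 (0.94) and Mrps6 (1.59). Negative values were found for Crebbp (-1.08), Pax9 (-3.33), Nfib (-0.82), Onecut2 (-3.15), Prox1 (-1.98), Gcg (-9.92), Grik1 (-3.17), Cacna2d1 (-2.70), Cdh10 (-2.60), Sema3c (-2.12), Plxna2 (-1.69), Ntn1 (-3.06), Lfng (-1.002), Mki67 (-1.19), Maf (-1.97), Mdga2 (-3.345), Zfp92 (-2.23), Ryr3 (-4.53), Sh3rf3 (-4.41), Evc (-2.68), Ildr2 (-2.97), Smoc1 (-2.14) and Slitrk1 (-2.93). The value of Gcg depends on the prior count, since 3 of the 4 groups had next to no reads. Fabp4 belongs to the fat list, whose sum was higher in the Rb1/Trp53 than in the Rb1/Trp53/Crebbp Calca-high tumours, and the part of those cells was not tested. Without T8, Nkx2-1 and Cited1 no longer passed. Leaving out any 1 of 9 libraries ended the call for Lfng, and any 1 of 2 those for Grik1 and Gcg.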

How the results depend on the processing

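The 1453 genes counted as apart in the Rb1/Trp53/Crebbp tumours, 628 and 825, became 3054 (1386 and 1668) with a 2-fold minimum and 7452 by an edgeR adjusted p under 0.05, which is a size and not evidence, since the counts made the split. In the Rb1/Trp53 tumours the same rules gave 3720 and 8302 in place of 1977. DESeq2 size factors, DESeq2, limma-voom, no filter, the fold alone and TMM factors of the genotype alone kept both counts within 1.5 times, and the first 4 of these gave 3100 to 4144 genes for the genotype difference, against 3531. Leaving out 1 library gave 1509 (without T2) to 1767 (without T8) and 1949 to 2216 genes, and 2559 to 3843 for the genotype difference. With the tumour number as a replicate block that count was 1253 (370 positive, 883 negative). Deviations of same-numbered tumours, which differ in genotype, correlated at -0.17 to 0.20. This does not show whether tumours of the same genotype share an animal. Without T8 the genotype difference changed sign in 19 of 126 named genes, of which 0 passed the test with T8 and 1 without it: that of Cacna1h was 0.75 (adjusted p = 0.622) and became -2.39 (adjusted p = 0.00459). Over all libraries left out, this value reached 1.15, without T6 of Rb1/Trp53/Crebbp. Without T8, 5 named genes gained a call (Nefm, Syt7, Cacna1h, Fzd10 and Bmpr1b) and 2 lost it. The cause was not tested. At 8328297 to 15490074 reads, genes under about 1 CPM rest on a handful of reads.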
